A study of Mus musculus with 8 samples.

Results

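The fast skeletal muscle genes are the genes of the fast-twitch form of the contractile apparatus and of its calcium handling, and they were followed here across 8 libraries of mouse heart RNA. The list of 10 genes was chosen with their levels in these libraries already known, namely from a table of FPKM, the fragments of a gene scaled to its transcript length and to the depth of the library. Their levels and differences are therefore given as a description, and no p or call is given for them in the comparisons below. Counts of calls across settings are listed at the end, also as a description only. Of the 10 genes, 9 were found among the 25929 genes of the table: Myh1, Myh2, Myh4, Mylpf, Tnnt3, Tnni2, Actn3, Atp2a1 and Pvalb. Tnnc2, the fast troponin C gene, was not analysed here.

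The study asked how n-3 polyunsaturated fatty acids made in the body alter the response of the heart to pressure overload. It used C57BL/6 wild-type mice (WT) and littermates (Fat1, with the strain label Fat-1) that carry fat-1, an n-3 fatty acid desaturase gene of C. elegans, and the promoter of the transgene is not given in the sources used here. At 3 months of age, mice had transverse aortic constriction (TAC), in which a suture narrows the aorta and loads the left ventricle, or a sham operation without constriction, and tissue was taken 8 weeks after TAC. Each combination of genotype and surgery had 2 libraries, which the labels call independent samples, giving the 4 groups WT-Sham and WT-TAC, and in the same way Fat1-Sham and Fat1-TAC. The number after a group's name is the replicate, so WT-TAC1 is the first heart library of WT-TAC. The sample labels give ventricular tissue as the source of RNA, whereas the methods give whole hearts, so what was dissected is not settled by these sources.

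A working heart builds its sarcomeres from its own set of proteins: alpha- and beta-myosin heavy chain (Myh6, Myh7), ventricular light chains (Myl2, Myl3), cardiac troponins (Tnnt2, Tnni3, Tnnc1), alpha-actinin-2 (Actn2) and the calcium pump SERCA2 (Atp2a2). Fast skeletal fibres use other genes of the same families. Myh2, Myh1 and Myh4 encode the myosin heavy chains of type IIa, IIx and IIb fibres, Mylpf the fast regulatory light chain, Tnnt3 and Tnni2 the fast troponins T and I, Actn3 the alpha-actinin of fast Z-discs, Atp2a1 the pump SERCA1, and Pvalb the calcium buffer parvalbumin. In adult mice these transcripts are typical of limb, trunk and head muscle rather than of the ventricle.

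Each library held between 14163994 fragments, in WT-Sham1, and 21218331, in WT-Sham2, as recovered from the FPKM values. In total RNA from tissue, fewer cells of a type and less RNA per cell cannot be told apart. The presence of heart muscle was checked with 13 cardiac counterparts of the fast genes, which were present in every library. Their summed level was 26000 FPKM in WT-TAC1 and between 47098 and 58291 FPKM in the other 7 libraries. No atrial genes were read beside them, so they do not tell ventricle from whole heart. WT-TAC1 stood apart from the other libraries. Of the 16389 genes that reached 1 FPKM in any library, 60.4% had their highest value in WT-TAC1 and 7.06% had a value there more than 5 times that of the next library. Levels of the fast genes are therefore given for single libraries, and their differences from WT-TAC with and without WT-TAC1.

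The genes lie in a few places in the genome (GRCm38, GENCODE M21). Myh2 (ENSMUSG00000033196, chromosome 11, 67171027 to 67197517), Myh1 (ENSMUSG00000056328, 67200052 to 67224575) and Myh4 (ENSMUSG00000057003, 67238029 to 67260446) follow each other on the plus strand, with 2535 and 13454 bases between them. On chromosome 7, Tnni2 (ENSMUSG00000031097, 142441808 to 142444410) and Tnnt3 (ENSMUSG00000061723, 142498836 to 142516009) are 54426 bases apart, and Atp2a1 (ENSMUSG00000030730, 126445858 to 126463108) and Mylpf (ENSMUSG00000030672, 127208890 to 127214298) lie elsewhere on that chromosome. Actn3 (ENSMUSG00000006457) is on chromosome 19 (4861216 to 4877909) and Pvalb (ENSMUSG00000005716) on chromosome 15 (78191114 to 78206400). All are annotated as protein coding.

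Promoters of the 3 clustered myosins, of Mylpf and of Atp2a1 are shown because these genes had their highest level in the same library although they sit at separate places. RefSeq entries (GRCm38.p6) were matched for 7 of the 10 genes, and the set of entries used here held none for Tnnt3, Tnni2 and Actn3. Each line below holds the 120 bases just before the RefSeq start of the gene, 5′ to 3′ on the coding strand, with matches to 5 motifs in capitals. For Myh1 and Myh4 the bases that follow were not found in the GENCODE M21 transcripts of the gene, so those starts differ between the annotations. For Atp2a1 they lay in a GENCODE transcript but did not open one. Part of the Myh1 and Atp2a1 windows and all of the Mylpf window lie within the gene as GENCODE places it.
Myh2 (chr11:67170907-67171026, plus strand): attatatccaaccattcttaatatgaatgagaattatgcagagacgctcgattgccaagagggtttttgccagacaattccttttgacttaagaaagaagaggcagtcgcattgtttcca
Myh1 (chr11:67199982-67200101, plus strand): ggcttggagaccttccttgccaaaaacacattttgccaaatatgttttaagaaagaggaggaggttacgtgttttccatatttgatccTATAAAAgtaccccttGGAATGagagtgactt
Myh4 (chr11:67237692-67237811, plus strand): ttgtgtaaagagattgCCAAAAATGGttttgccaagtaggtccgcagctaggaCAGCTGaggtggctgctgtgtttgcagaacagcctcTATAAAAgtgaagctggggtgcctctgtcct
Mylpf (chr7:127211488-127211607, plus strand): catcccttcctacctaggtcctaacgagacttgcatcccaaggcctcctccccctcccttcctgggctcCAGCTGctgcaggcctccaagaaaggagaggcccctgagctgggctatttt
Atp2a1 (chr7:126463074-126463193, minus strand): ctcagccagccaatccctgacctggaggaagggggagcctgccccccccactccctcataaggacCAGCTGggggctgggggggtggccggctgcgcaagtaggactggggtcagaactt
Motifs were searched on both strands over the 250 bases before the start. They were the E-box CANNTG, bound by the MyoD family, the MEF2 element, the CArG box of serum response factor, the MCAT element CATTCC of TEAD factors, and the TATA box, and the MEF2 element and the TATA box can overlap. A TATA box began 32 bases before the RefSeq start in Myh1, within the gene as GENCODE places it, and 31 bases before it in Myh4. Myh2 had none of the 5 motifs in its window. Of the 7 genes with an entry, 5 held an E-box (66.2% of 32851 promoters did), 3 a MEF2 element (2.92%), 2 a TATA box (11.5%), 2 an MCAT element (12.6%) and 1 a CArG box (1.47%). These matches describe letters only, and their use in these hearts was not measured.

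The 3 heavy chain genes of the thick filament were nearly absent from 7 of the 8 hearts. Myh1 was at 0.0151 and 0 FPKM in WT-Sham1 and WT-Sham2, at 8.39 and 0.0716 in WT-TAC1 and WT-TAC2, at 0.0241 and 0.0110 in Fat1-Sham1 and Fat1-Sham2, and at 0.0115 and 0.0236 in Fat1-TAC1 and Fat1-TAC2. WT-TAC1 alone was above 1 FPKM, and its partner WT-TAC2 came next with 6 fragments against 776, while the 6 libraries of the other groups held 2 or fewer. Myh2 was at 5.18 FPKM in WT-TAC1, at 0.0246 in WT-TAC2 and at 0.0113 in Fat1-Sham2, and was listed at 0 in the other 5 libraries. Myh4 was at 4.47 FPKM in WT-TAC1 and at 0.0277 in Fat1-TAC2, and was listed at 0 in the other 6 libraries. A gene with 3 fragments or fewer in a library was taken to lie at the detection floor, which covers counting error only. By that measure Myh1 was above the floor in 2 libraries, and Myh2 and Myh4 were above it in 1.

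All 3 fast fibre myosins were thus present together in WT-TAC1. Of its 1770 fragments on these genes, 776 lay on Myh1 (43.8%, 95% Wilson interval 41.5% to 46.2%), 529 on Myh4 (29.9%, 27.8% to 32.1%) and 465 on Myh2 (26.3%, 24.3% to 28.4%). The order of Myh2 and Myh4 depends on the unit. In FPKM, Myh2 (5.18) was above Myh4 (4.47), because the deposited values divide by the mean length of the annotated transcripts, which was 4530 bases for Myh2 and 5964 bases for Myh4. Scaled to the longest transcript, the same fragments gave 3.86 FPKM for Myh2, 4.43 for Myh4 and 6.44 for Myh1, so Myh1 led on both scales. The transcripts are also similar in sequence: of the 75-base stretches of the longest Myh1 transcript, 12.6% occurred in Myh2 and 4.84% in Myh4, so some fragments could have been assigned to the wrong one of these genes. None occurred in Myh6 or Myh7, the cardiac myosins.

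Mylpf, the regulatory light chain that sits on the neck of the fast myosins, had the highest deposited FPKM of the 9 genes in WT-TAC1. Its level was 1.46 and 1.19 FPKM in WT-Sham, 65.4 and 1.15 in WT-TAC, 2.46 and 1.30 in Fat1-Sham, and 2.96 and 2.03 in Fat1-TAC. WT-TAC1 was 22.1 times the next library, Fat1-TAC1, whereas WT-TAC2 was the lowest of all 8. The length divided out was 434 bases, and at the longest transcript of 766 bases the level in WT-TAC1 would be 37.1 FPKM, against 38.0 for Tnnt3 on the same scale. In fragments of WT-TAC1, Tnnt3 with 813, Myh1 with 776 and Atp2a1 with 603 were above Mylpf with 563.

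Of the thin filament genes, Tnnt3, whose product anchors the troponin complex to tropomyosin, was at 0.4995 and 0.556 FPKM in WT-Sham, 48.4 and 4.73 in WT-TAC, 0.398 and 0.482 in Fat1-Sham, and 0.505 and 0.715 in Fat1-TAC. WT-TAC2 also stood clear of the 6 libraries of the other groups here, with 72 fragments against 11 or fewer, although WT-TAC1 was still 10.2 times WT-TAC2. Tnni2, the inhibitory subunit, was at 1.95 and 5.63 FPKM in WT-Sham, 33.4 and 3.92 in WT-TAC, 1.89 and 3.52 in Fat1-Sham, and 1.72 and 1.18 in Fat1-TAC. Here the next library was a sham heart, WT-Sham2, and WT-TAC1 was 5.94 times as high, the smallest such ratio among the 9 genes. WT-TAC2 lay between the 2 WT-Sham libraries.

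Actn3, which cross-links actin in fast Z-discs, was at 0.475 and 0.415 FPKM in WT-Sham, 6.74 and 0.750 in WT-TAC, 0.757 and 0.344 in Fat1-Sham, and 0.249 and 0.228 in Fat1-TAC. Both WT-TAC libraries were above both WT-Sham libraries, but WT-TAC2 was level with Fat1-Sham1.

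Both calcium genes were again highest in WT-TAC1. Atp2a1, which pumps calcium back into the reticulum of fast fibres, was at 0.577 and 1.97 FPKM in WT-Sham, 14.6 and 1.04 in WT-TAC, 0.487 and 0.221 in Fat1-Sham, and 0.283 and 0.424 in Fat1-TAC. WT-TAC1 was 7.42 times WT-Sham2, the next library. Pvalb was at 0.658 and 0.147 FPKM in WT-Sham, 8.99 and 0.462 in WT-TAC, 0.816 and 0.477 in Fat1-Sham, and 0.0555 and 0.228 in Fat1-TAC, with 172 fragments in WT-TAC1 and between 1 and 14 in the others. WT-TAC1 was 11.02 times Fat1-Sham1.

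**Figure D1:**
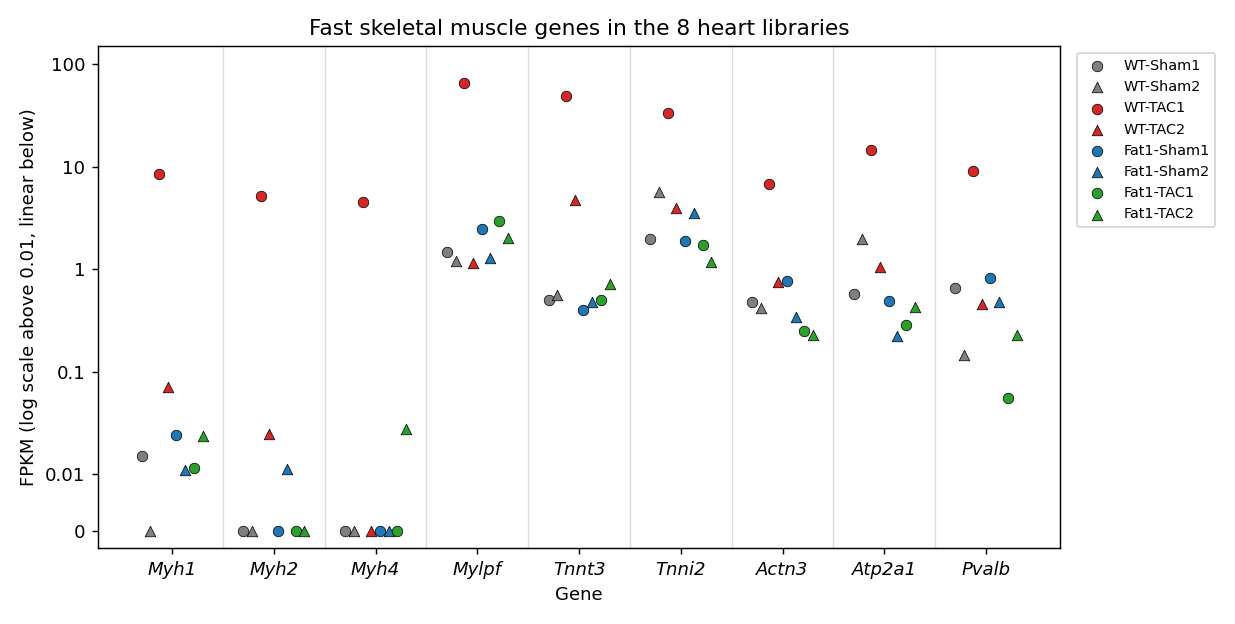
Level of each of the 9 genes (FPKM, log scale above 0.01 and linear below) in the 8 libraries, with colour for the group and shape for the replicate number. WT-TAC1 was the highest library for all 9, from 4.47 FPKM for Myh4 to 65.4 for Mylpf, while WT-TAC2 was above the 6 libraries of the other groups for Tnnt3, Myh1 and Myh2, for the last with 2 fragments.

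All 9 genes were therefore highest in WT-TAC1 and more than 5 times the next library there. Over all genes that reached 1 FPKM in any library these shares were 60.4% and 7.06%, and nothing is read from the comparison because the genes were selected on these values. Together the 9 genes took 4612 fragments in WT-TAC1, or 0.0233% of all fragments (95% Wilson interval 0.0226% to 0.0239%). In the other 7 libraries they took between 73 and 208 fragments, or between 0.000401% in Fat1-TAC1 and 0.00116% in WT-TAC2. The share of a gene's fragments over all 8 libraries that came from WT-TAC1 was 98.4% for Myh1, 99.4% for Myh2 and 99.4% for Myh4. It was 87.0% for Tnnt3, 85.0% for Mylpf, 78.2% for Pvalb, 75.4% for Atp2a1, 69.7% for Actn3 and 64.0% for Tnni2. The genes thus fell into 3 heavy chains that were at or near 0 in the other hearts and 6 genes that were low there, between 0.0555 and 5.63 FPKM. Of these 6, only Pvalb was at or under the floor of 3 fragments in any library, namely in WT-Sham2 and Fat1-TAC1.

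The fast forms remained a small part of the contractile transcripts even in WT-TAC1. There Actn3 was at 1.62% of the FPKM of Actn2, Tnnt3 at 1.58% of Tnnt2, Mylpf at 1.25% of Myl2, Tnni2 at 1.15% of Tnni3, Atp2a1 at 0.699% of Atp2a2 and Myh1 at 0.113% of Myh6. The lengths divided out were recovered as 4666 bases for Myh1 and 1554 bases for Myh6. The size of such a percentage depends on these lengths, but its order among libraries does not. In the other 7 libraries the highest of these percentages was 0.109%, for Tnni2 in WT-Sham2. The denominators differed as well: 12 of the 13 cardiac counterparts were lowest in WT-TAC1 (14% of all genes were), and Myh7 was the exception. Myh6 was at 7406 FPKM in WT-TAC1 and at 13333 in its partner. Myl2 was at 5244 FPKM in WT-TAC1 against 10107 in WT-TAC2.

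**Figure D2:**
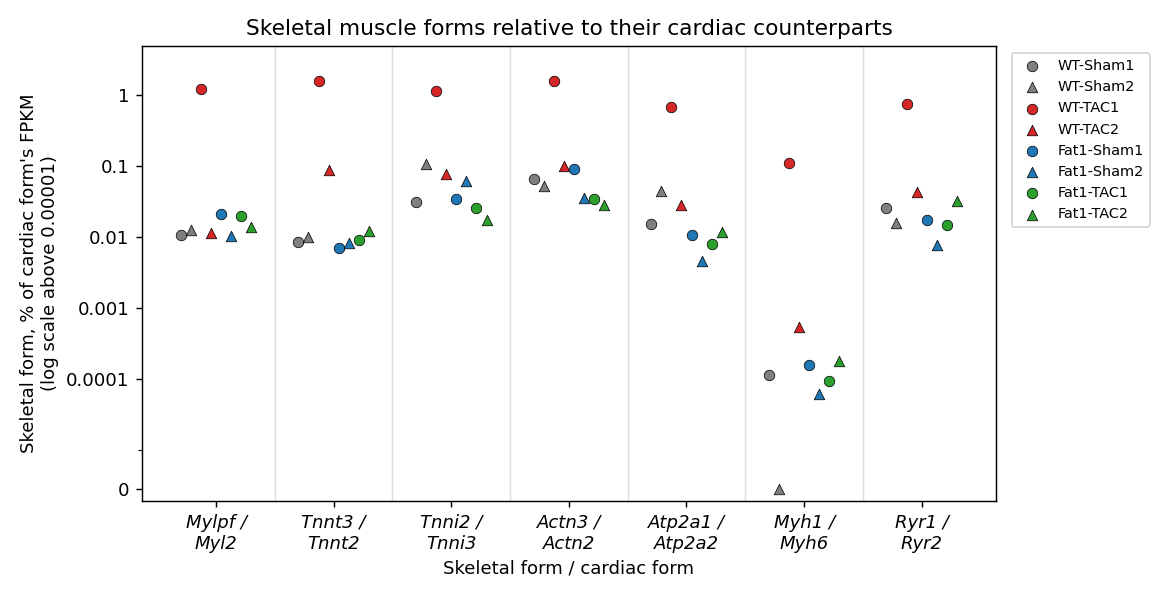
Level of a skeletal muscle form as a percentage of its cardiac counterpart (FPKM over FPKM, log scale above 0.00001) in the 8 libraries, with colour for the group and shape for the replicate number. In WT-TAC1 the percentages ran from 0.113% for Myh1 over Myh6 to 1.62% for Actn3 over Actn2, and each was above those of the other 7 libraries. Percentages of different pairs also depend on the lengths divided out.

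Pressure overload in WT mice was compared first. All 9 genes had a lower mean in WT-Sham than in WT-TAC, with a median difference of 1.47 in mean log2(FPKM + 1), beside 0.39 over the 14442 genes tested. For example, Mylpf had 1.33 ± 0.191 FPKM in WT-Sham and reached 33.3 ± 45.4 in WT-TAC (SD, n = 2 each). Tnnt3 had 0.528 ± 0.0398 FPKM in WT-Sham and reached 26.5 ± 30.8 in WT-TAC, and the SD exceeded the mean in WT-TAC for all 9 genes. Both WT-TAC libraries were above both WT-Sham libraries for 4 of the 9, Myh1, Myh2, Tnnt3 and Actn3, whereas this held for 52.5% of the genes tested. For Myh2 it rested on 2 fragments in WT-TAC2, a value under the floor that cannot be told from 0. The groups overlapped for Mylpf, Tnni2, Atp2a1 and Pvalb, and Myh4 was listed at 0 in WT-TAC2 as in both WT-Sham libraries.

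Calls across all genes give the background. A gene was called with limma, on log2(FPKM + 1), where its adjusted p (Benjamini-Hochberg) was below 0.1 and its fold change above 1.5 in either direction. Genes entered this test with at least 1 FPKM in 2 libraries or more. Of the 9, only Mylpf, Tnnt3, Tnni2 and Atp2a1 did so. The other 5 exceeded 1 FPKM in WT-TAC1 alone and were not tested. Mylpf and Tnni2 reached 1 FPKM in all 8 libraries, but Tnnt3 did so in the WT-TAC libraries alone, and Atp2a1 in those and WT-Sham2. A gene that enters through the group where it is high has to differ, and the 9 genes were chosen on these levels, so no call is given for them here. In the comparison of WT-TAC with WT-Sham limma called 0.935% of all genes tested, and limma-voom on the recovered fragments called 0%.

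The difference rested on 1 library. Without WT-TAC1 the median over the 9 genes fell from 1.47 to 0.08, and without WT-TAC2 it was 2.86. Single genes without WT-TAC1 differed from WT-Sham by -0.11 for Mylpf, -0.08 for Atp2a1, 0.00 for Myh4, 0.04 for Myh2, 0.08 for Pvalb, 0.09 for Myh1, 0.16 for Tnni2 and 0.28 for Actn3. Tnnt3 kept a difference of 1.91, down from 3.46. Without WT-TAC2, all 9 differences from WT-Sham were larger than with both WT-TAC libraries, from 2.42 for Actn3 to 5.01 for Tnnt3.

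In the fat-1 mice, TAC went with no shared shift of the fast genes. Of the 9, 5 had a higher mean in Fat1-TAC than in Fat1-Sham and 4 a lower one, and the median difference was 0.000 in mean log2(FPKM + 1), beside 0.03 over all genes tested. This median is the value of Myh1, which had 1 or 2 fragments in each of these libraries, so it says little about the genes above the floor. Single differences ran from -0.57 for Tnni2 to 0.30 for Mylpf. Both Fat1-TAC libraries were below both Fat1-Sham libraries for Tnni2, Actn3 and Pvalb (21.5% of genes tested) and above them for Tnnt3 (26.8%). Pvalb was at 0.142 ± 0.122 FPKM in Fat1-TAC and 0.646 ± 0.240 in Fat1-Sham (SD, n = 2 each), where Fat1-TAC1 held 1 fragment. Tnni2 was at 1.45 ± 0.382 FPKM in Fat1-TAC against 2.71 ± 1.15 in Fat1-Sham.

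Between the sham groups the fast genes had no shared shift on the log2(FPKM + 1) scale, with 5 higher and 3 lower in Fat1-Sham. The median difference of Fat1-Sham from WT-Sham was 0.01. This is the value of Myh2, which had 1 fragment in Fat1-Sham2 and 0 in the other sham libraries, so it says little about the genes above the floor. Atp2a1 had the largest of the 9 differences in size, at -0.68, with 0.354 ± 0.188 FPKM in Fat1-Sham and 1.27 ± 0.986 in WT-Sham (SD, n = 2 each). Both Fat1-Sham libraries were below both WT-Sham libraries for Atp2a1 and Tnnt3, as for 16.5% of genes tested.

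Fat1-TAC was then compared with WT-TAC, which shares the WT-TAC libraries with the first comparison. All 9 genes had a lower mean in Fat1-TAC, with a median difference of -1.75, beside -0.40 over all genes tested. Both Fat1-TAC libraries were below both WT-TAC libraries for 7 of the 9 (57.1% of genes tested), all but Mylpf and Myh4, for which WT-TAC2 was the lower or was listed at 0. For Myh2 this again rested on 2 fragments in WT-TAC2, under the floor. Without WT-TAC1 the median moved to -0.36, and Mylpf turned to 0.69, higher in Fat1-TAC. Tnnt3 went from -3.39 to -1.83 and Tnni2 from -2.42 to -1.01. Without WT-TAC2 the differences ran from -4.94 for Tnnt3 to -2.43 for Myh4.

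**Figure D3:**
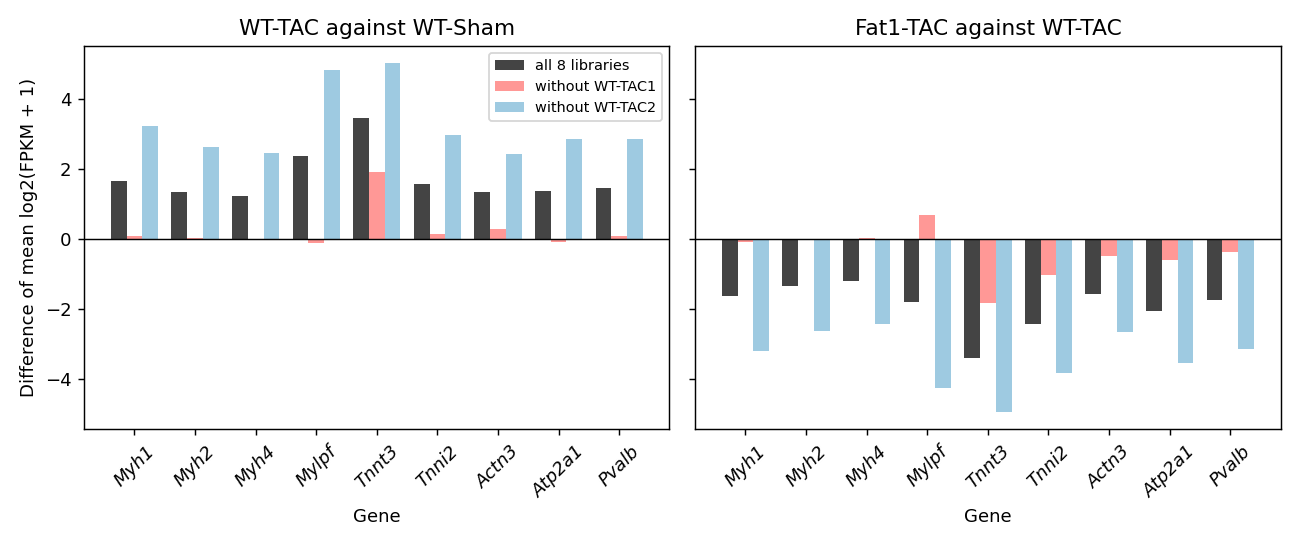
Difference of mean log2(FPKM + 1) for each gene in WT-TAC against WT-Sham (left) and Fat1-TAC against WT-TAC (right), as bars for all 8 libraries, without WT-TAC1 and without WT-TAC2. Without WT-TAC1 the bars are shorter for all 9 genes, and Tnnt3 is at 1.91 on the left and -1.83 on the right.

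The interaction of genotype and surgery asked whether the response to TAC differed between fat-1 and WT mice. Its median over the 9 genes was -1.66 on the log2(FPKM + 1) scale, beside -0.37 over all genes tested, and -0.09 without WT-TAC1. Single interactions ran from -3.30 for Tnnt3 to -1.21 for Myh4 with all libraries, and from -1.75 for Tnnt3 to 0.41 for Mylpf without WT-TAC1.

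The skeletal muscle programme beyond the fast genes was read from a further list of 19 genes, all of which were in the table and which were chosen with earlier results of these data known. Of these, 8 were highest in WT-TAC1, beside 60.4% of all genes that reached 1 FPKM in any library, and 3 were more than 5 times the next library there, beside 7.06%. Ampd1, the muscle AMP deaminase, was at 4.31 FPKM in WT-TAC1 and at most at 0.0690 elsewhere. Ryr1, the calcium release channel of skeletal muscle, was at 1.54 FPKM in WT-TAC1 and at most at 0.176 elsewhere, and Myoz1, a calcineurin-binding Z-disc protein of fast fibres, at 5.71 against at most 0.841. Among the others that were highest there, Stac3, an adaptor of excitation-contraction coupling, was at 2.88 FPKM in WT-TAC1 and at most at 1.65 elsewhere, and Neb, the giant thin filament protein nebulin, at 4.56 against at most 3.40.

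Other genes of that list had a level in every heart and were not highest in WT-TAC1. Myl1, an alkali light chain, was at 98.3 FPKM in WT-TAC1, at 99.2 in its partner, and was highest in WT-Sham2 at 169.3. Casq1, the skeletal calsequestrin, was at 5.86 FPKM in WT-TAC1 and ran from 2.94 to 8.58 in the others. Fbp2, the muscle fructose bisphosphatase, was lowest in WT-TAC1 at 10.6 FPKM against 21.4 to 37.3 in the other libraries. Klhl40, a protein that stabilises the thin filament, was lowest there too, at 4.40 FPKM against 7.74 to 9.94, and so were Scn4a, a muscle sodium channel, at 5.80 and Tmod4, a cap of thin filaments, at 15.9. The summed level of the 19 genes was 178.4 FPKM in WT-TAC1 and between 134.2 and 265.8 in the other 7 libraries.

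Of the 19, 13 were tested. Limma called 0 of the 13 in WT-TAC against WT-Sham (0.935% of all genes), in Fat1-TAC against Fat1-Sham (0.00692%), between the sham groups (0%), in Fat1-TAC against WT-TAC (1.43%) and in the interaction (0.0692%), and limma-voom, which took in 17 of the 19, called 0 in each. With an unadjusted p below 0.05 in place of the adjusted one, limma counted Stac3 higher and Fbp2 lower in WT-TAC against WT-Sham, where 22.7% of all genes were counted higher and 1.11% lower. In Fat1-TAC against WT-TAC it counted Fbp2 higher and Sypl2 and Myl1 lower, beside 1.72% of all genes higher and 23.5% lower. Between the sham groups it counted Myl1 lower in Fat1-Sham, beside 0.692% lower and 0.201% higher. It counted 0 in Fat1-TAC against Fat1-Sham (1.33% higher, 0.533% lower) and 0 in the interaction (0.609% higher, 6.38% lower). Stac3 reached 1 FPKM in TAC libraries alone, and Sypl2 in WT libraries alone. Genes that enter through the groups where they are high have to differ. Counts and calls of Stac3 and Sypl2, here and below, are therefore a description and no test.

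Calls of these 13 genes appeared once WT-TAC2 was left out, a fit in which the lone WT-TAC library was assumed to vary like those of the other groups. In WT-TAC against WT-Sham limma then called 4 of the 13, Stac3 higher and Fbp2, Klhl40 and Scn4a lower, and 50.5% of all genes. In Fat1-TAC against WT-TAC it called 7 of the 13, and 53.8% of all genes, and in the interaction 2 of the 13, Fbp2 and Klhl40, and 45.8%. The median difference of the 19 genes was 0.21 in mean log2(FPKM + 1) between WT-TAC and WT-Sham, 0.08 without WT-TAC1, 0.05 without WT-TAC2 and -0.03 with median-of-ratios scaling, so its sign depends on the scaling. Between Fat1-TAC and WT-TAC it was -0.18, and -0.06 without WT-TAC1.

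**Figure D4:**
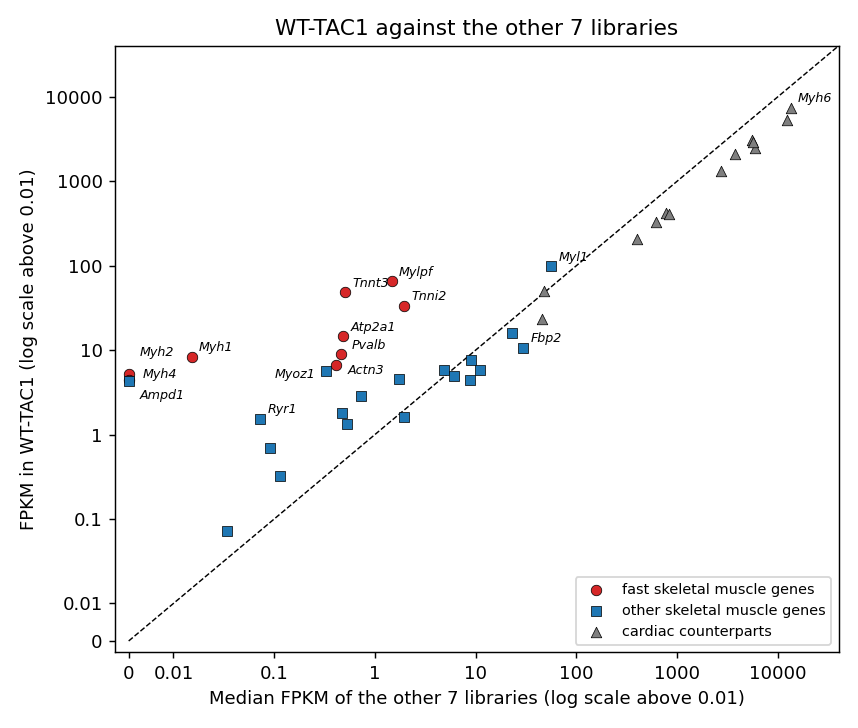
Level of each gene in WT-TAC1 (FPKM) against its median over the other 7 libraries (FPKM), both axes logarithmic above 0.01, for the 9 fast skeletal muscle genes, the 19 other skeletal muscle genes and the 13 cardiac counterparts, with a dashed line at equal levels. The fast genes lie above the line, the cardiac genes except Myh7 below it, and the other skeletal genes lie on both sides of it, with Ryr1 above at 1.54 FPKM and Fbp2 below at 10.6.

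Slow fibre genes were mixed. Mybpc1, the slow myosin-binding protein C, was at 5.81 FPKM in WT-TAC1 and at most at 0.275 elsewhere, and Tnni1, the slow troponin I, at 2.41 against at most 0.982. Tnnt1, the slow troponin T, did not follow, with 13.9 FPKM in WT-TAC1 and 12.1 to 15.9 in the other libraries. Myh7b, a slow myosin of the heart and of some muscles, was lowest in WT-TAC1 at 19.9 FPKM and highest in Fat1-TAC2 at 52.1. Of the developmental and extraocular myosins, Myh8 had 13 fragments in WT-TAC2 and 5 in WT-TAC1, and Myh13 had 4 in WT-TAC1, with 3 or fewer elsewhere for both. Myh3 was not analysed here.

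Myogenic regulators gave few fragments, and genes of the neuromuscular junction were mixed. In WT-TAC1, Pax7, the marker of muscle satellite cells, had 18 fragments (0.240 FPKM), where WT-TAC2 had 1 and the other 6 libraries had 0. Myod1 and Myf6, myogenic transcription factors, had 3 and 4 fragments in WT-TAC1 and 2 or fewer elsewhere. The acetylcholine receptor subunits Chrna1, Chrne and Chrng had 4, 1 and 3 fragments there, so that a difference was not detectable at this depth. The subunit Chrnb1 was present in every heart, with 167 fragments (8.81 FPKM) in WT-TAC1 and 88 to 152 fragments (4.71 to 7.92 FPKM) in the other libraries. Musk, the kinase of the junction, had 26 fragments in WT-TAC1 and between 1 and 8 elsewhere. Colq, the collagen tail of acetylcholinesterase, was at 53.9 FPKM in WT-TAC1 and between 3.53 and 7.66 in the other libraries, whereas Dok7, the activator of Musk, was lowest in WT-TAC1 at 7.45 FPKM. Myog, Myf5 and Chrnd were not analysed here.

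Markers of other tissues near the heart also moved with WT-TAC1, and their part in the result was not tested. All 5 thymocyte genes (Rag1, Dntt, Ptcra, Cd3e and Cd8b1) were highest in WT-TAC1 and more than 5 times the next library, with a sum of 890.7 FPKM there and between 0.0952 and 0.537 elsewhere, and Rag1 alone was at 251.9 FPKM in WT-TAC1 and listed at 0 in 6 libraries. The 3 squamous epithelium genes summed to 48.1 FPKM in WT-TAC1, nearly all of it Krt5 at 47.3, against 2.91 in WT-TAC2 and 0.434 or less in the others. Airway genes were high in both WT-TAC libraries but more so in the other one, with a sum of 1414 FPKM in WT-TAC1, 3751 in WT-TAC2 and 0.0813 to 46.7 elsewhere, and 1 of the 5 (Cdh1) was highest in WT-TAC1. The 4 Schwann cell genes summed to 51.0 FPKM in WT-TAC1, 36.2 in WT-TAC2 and 5.25 to 13.1 elsewhere, and the 3 plasma cell genes to 78.7, 37.1 and 1.68 to 31.2. White fat genes (sum 601.4 FPKM in WT-TAC1), brown fat genes (81.4) and cartilage genes (6.92) were higher in WT-TAC2, at 782.3, 219.0 and 9.71 FPKM. Of the thyroid list, Tg was at 0.822 FPKM in WT-TAC1, within the range of the others. The library that was highest for the fast skeletal muscle genes was thus also highest for the thymocyte genes and, through Krt5, for the squamous sum. Krt4 had 17 fragments in each WT-TAC library, and Krt13 had 7 in WT-TAC1 and 5 in Fat1-Sham1. WT-TAC2 was highest for the airway and fat sums. It was above the libraries of the other 3 groups in Tnnt3, with 72 fragments, and in Myh1 and Myh2, with 6 and 2.

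**Figure D5:**
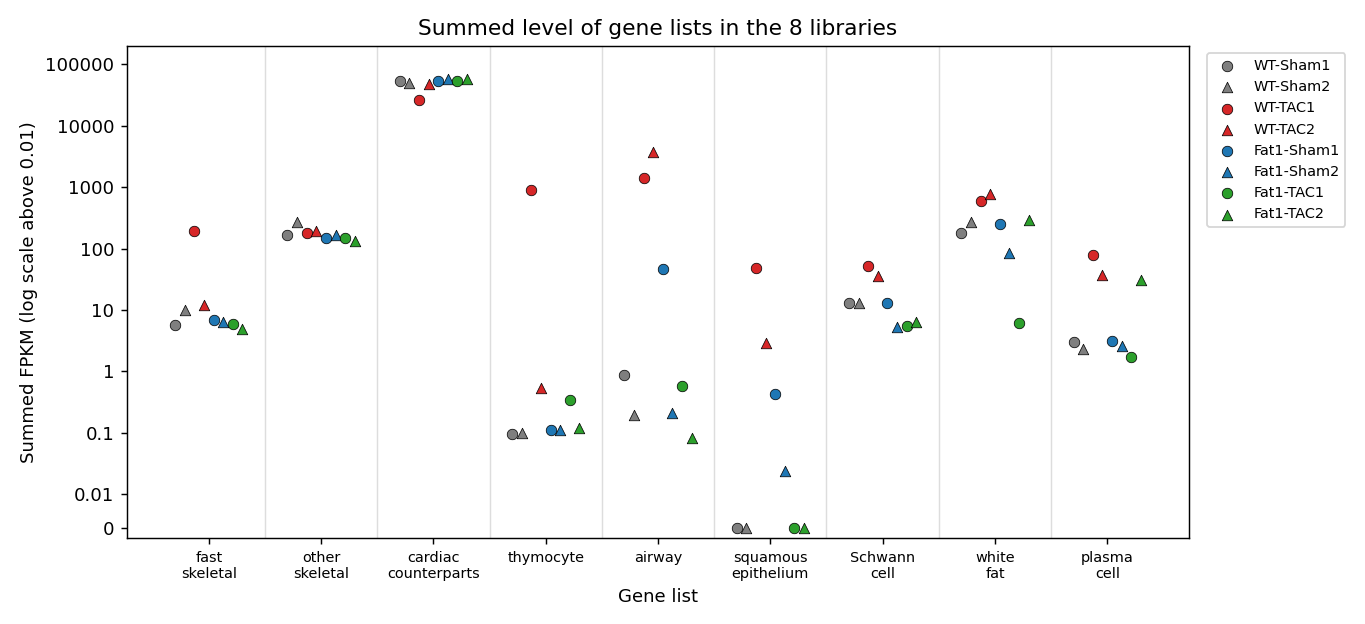
Summed level (FPKM, log scale above 0.01) of 9 gene lists in the 8 libraries, with colour for the group and shape for the replicate number. The fast skeletal muscle genes reached 195.6 FPKM in WT-TAC1 against 4.86 to 12.2 elsewhere, the thymocyte genes 890.7 against at most 0.537, and the cardiac counterparts were lowest in WT-TAC1 at 26000.

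The genes outside these lists whose pattern was most like that of the fast genes were found by Pearson's r with the mean log2(FPKM + 1) of the 9 genes over the 8 libraries. The 10 highest were Trpv2, Fam169b, Cd3d, Unc5cl, Dusp2, Gm38411, Atl2, Arhgdib, Gm48719 and Cd69, with r between 0.9983 and 0.9995. Cd3d, a chain of the T cell receptor complex, was at 182.4 FPKM in WT-TAC1 and at most at 0.910 elsewhere, and Cd69, an activation antigen of lymphocytes, at 13.4 against at most 0.2999. Trpv2, a cation channel, was at 22.0 FPKM in WT-TAC1 and at most at 2.503 elsewhere. These r values rest on 1 library, and 35.8% of the 11587 genes compared had an r of 0.9 or more, so the ranking says little about single genes.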

How the data were processed

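RNA-sequencing of mouse hearts gave 8 libraries, assigned by the sample titles to 4 groups of 2 (wild-type or fat-1 mice, after TAC or a sham operation). Total RNA was extracted with TRIzol, libraries were made with a NEBNext Ultra kit and sequenced as paired ends on an Illumina HiSeq. The submitters' processing notes name HISAT2 and the builds mm10 and GRCm38, and the counting program and annotation are not given in the sources used here. The authors deposited FPKM values for 25929 genes, of which 77 carried no symbol, and 4 blank lines were removed. The members and gene lists were chosen with earlier results of these data known. Genes named in the text are the members, the genes of those lists and the 10 genes most like the members in pattern.

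Whole fragments were recovered from the FPKM values. At the rounded mean length of a gene's annotated transcripts (GENCODE M21), 90.0% of genes gave whole fragments in all 8 libraries, within 0.001 fragment, and 25928 genes did so at some whole length. FPKM therefore depends on the annotated short transcripts. Totals lay between 14163994 and 21218331 fragments. Intervals are 95% Wilson intervals and, like the floor of 3 fragments, cover counting error only, since without molecular identifiers PCR copies cannot be told from separate molecules.

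Groups were compared with limma (version 3.58.1, R 4.3.3). The functions lmFit and eBayes, the latter with an intensity trend, were run on log2(FPKM + 1) for the 4 group means, with all 8 libraries and the genes that had at least 1 FPKM in 2 libraries or more. This scale understates the change of low genes. A gene was called where its adjusted p (Benjamini-Hochberg) was below 0.1 and its fold change above 1.5 either way, and no p is given for the members. The labels call the 2 samples of a group independent, and p-values measure the spread between them. Alternatives were median-of-ratios scaling, no filter, a mean of 5 FPKM or more, a block for the replicate number, a pseudocount of 0.1, a fit of the compared groups alone and each library left out. After the data were seen, limma-voom on the recovered fragments, over genes with 10 fragments or more in at least 1 library, and a block with crossed numbers were added. The fits were tested on simulated data.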

Additional observations from a re-analysis of the deposited data

Results flagged for a closer look

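Among the fast skeletal muscle genes, Actn3 differed in opposite directions between TAC and sham in the 2 genotypes. Both WT-TAC libraries were above both WT-Sham libraries (difference 1.35 in mean log2(FPKM + 1)), as for 52.5% of genes tested. Both Fat1-TAC libraries were below both Fat1-Sham libraries (-0.31), as for 21.5%. The share of genes with both features was not counted, so nothing particular to Actn3 is read from them. The gene was below the filter on low values, so the difference between the genotypes was not tested in that fit, and it was not called where all genes were tested or with limma-voom. Without WT-TAC1 the difference in WT was 0.28.

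Other listed genes also had groups that separated in opposite directions, and the share of all genes that did so was not counted. For Col2a1 and Krt4 the fat-1 libraries held 2 fragments or fewer. Such values cannot be told from 0, so no opposite move was measured for these 2 genes. Of the cardiac counterparts, Tnni3 was lower in WT-TAC (-0.55) and higher in Fat1-TAC (0.27), and Tnnc1 likewise (-0.55 and 0.22). Without WT-TAC1 the difference in WT was -0.16 for both. Among the markers of other tissues, the differences in WT and in fat-1 mice were 1.07 and -0.67 for Cidea, 1.31 and -0.048 for Col2a1, 0.57 and -0.53 for Cnmd, and 0.51 and -0.054 for Krt4. Without WT-TAC1 those in WT were 1.79, 1.75, 0.59 and 0.53. The interaction of these genes was not called with all 8 libraries under any setting tried, and Col2a1 and Krt4 were tested only without the filter and with limma-voom. Without WT-TAC2 it was called for Tnni3, Tnnc1 and Cnmd, as for 45.8% of all genes. The airway gene Scgb3a2 was called in the interaction of genotype and surgery itself by limma, with a log2 interaction of -8.13 (adjusted p 0.0659). Its level was 92.9 and 219 FPKM in the WT-TAC libraries and 2.82 in Fat1-Sham1, with 0 in the other 5 libraries. WT-Sham and Fat1-TAC thus had no spread, and the WT-TAC libraries, where the gene was high, sufficed for the filter. Scgb3a2 was also chosen with earlier results known, so its calls, here and below, are a description and no test. It was also called without the filter (0.0747), but not with median-of-ratios scaling, a mean of 5 FPKM, a pseudocount of 0.1, the replicate block or limma-voom, where the adjusted p lay between 0.174 and 0.629. With 1 library left out it was called in 3 of 8 fits, those without WT-TAC1, WT-TAC2 or Fat1-Sham2, and in the other 5 the adjusted p lay between 0.126 and 0.473.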

How the results depend on the processing

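The count of fast skeletal muscle genes called was 0 in every comparison under each setting that left out no replicate, also when all 9 were tested without the filter. The genes were chosen on these values, and Tnnt3 entered the filter through the WT-TAC libraries alone. These counts are therefore a description and no test of robustness. With 1 library left out it ran from 0 to 3 in WT-TAC against WT-Sham, in Fat1-TAC against WT-TAC and in the interaction, and 3 were reached only without WT-TAC2. For the other skeletal muscle genes it ran from 0 to 4, from 0 to 7 and from 0 to 2 in those comparisons. In Fat1-TAC against Fat1-Sham and Fat1-Sham against WT-Sham both counts were 0 throughout. The fit without WT-TAC2 rests on a lone WT-TAC library. Counts over all genes were also highest there in WT-TAC against WT-Sham, in Fat1-TAC against WT-TAC and in the interaction. The counts of both lists in that fit are therefore not read as specific to skeletal muscle genes.

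The median over the 9 genes, with 1 library left out, ran from 0.084 to 2.86 in WT-TAC against WT-Sham, from -3.21 to -0.36 in Fat1-TAC against WT-TAC and from -3.22 to -0.089 in the interaction, with the value nearest 0 always without WT-TAC1. It ran from -0.01 to 0.01 in Fat1-TAC against Fat1-Sham and from 0 to 0.01 in Fat1-Sham against WT-Sham. In those groups Myh1, Myh2 and Myh4 were at or under the floor, so these narrow ranges say little about the other genes. A pseudocount of 0.1 moved the median to 2.67 in WT-TAC against WT-Sham, to -3.02 in Fat1-TAC against WT-TAC and to -3.01 in the interaction. Limma-voom gave 2.68, -3.59 and -3.48 and, between the sham groups, 0.19. A pseudocount sets how far genes near 0 are pulled together. With Myh1, Myh2 and Myh4 set to their floor of 3 fragments per library the medians stayed at 1.47 and -1.75. Both are the values of Pvalb, which that setting does not touch, so the unchanged medians say little about the floor. Median-of-ratios scaling, which removes the shift of all genes (0.39 in WT-TAC against WT-Sham), left the medians at 1.14 and -1.38.

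The count of all genes called changed more. For WT-TAC against WT-Sham it was 135, and 23 with median-of-ratios scaling, 293 without the filter, 9 at a mean of 5 FPKM, 33 with a pseudocount of 0.1, 52 with the replicate block and 0 with limma-voom. For Fat1-TAC against WT-TAC it was 206, and in the same order 20, 350, 15, 33, 52 and 0, and 41 with only the groups compared. For the interaction it was 10, and in the same order 0, 70, 0, 0, 0 and 0. For Fat1-TAC against Fat1-Sham it was 1, and 0 without the filter, at a mean of 5 FPKM, with only the groups compared, with limma-voom and with crossed numbers. With 1 library left out these counts ran from 0 to 7065, from 5 to 7523, from 0 to 6398 and from 0 to 5, the highest of the first 3 without WT-TAC2. Between the sham groups the count was 0 throughout. The cause of these changes was not tested.

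The replicate numbers did not pair the libraries: correlations of the deviations of same-numbered libraries from their group means lay between -0.135 and 0.0236. The replicate block left the counts of fast genes at 0. Blocks with crossed numbers, tried after the data were seen, gave 0 calls in both comparisons tried. At this depth, values of 3 fragments or fewer cannot be told from 0.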
